A study of Papaver somniferum with 9 samples.

Results

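Root and top leaf of opium poppy (Papaver somniferum) were compared at the filling stage, when the capsule fills after the petals have dropped. The comparison used 6 of the 9 samples of the series, 3 of root and 3 of leaf, chosen by their tissue label alone, and left the stem samples aside. All plants were of the cultivar B1, grown in a field plot and sampled on the same day. The root samples were cut from an underground piece of the root and the leaf samples were the top leaf of the plant, so each stands for 1 position in the organ. The study describes the 3 samples of a tissue as independent but does not say how many plants each holds. The p-values therefore weigh a difference against the variation between these samples. Each value is the RPKM of a unigene, that is, its reads corrected for transcript length and for the number of reads mapped in that sample. Unigenes come from the full-length transcripts of the study's own long-read sequencing of B1, and 61856 of them were measured. The study counts them apart from its non-redundant isoforms. The RNA for this sequencing was pooled from B1 samples of root, stem and leaf, most of them leaf. Whether the unigenes cover root transcripts as fully as leaf transcripts was not tested.

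Roots anchor the plant and take up water and mineral ions, and they are a sink for sugars made elsewhere. Leaves carry out photosynthesis, and in leaf RNA of flowering plants transcripts for Rubisco and for the light-harvesting proteins are among the most abundant. Opium poppy makes benzylisoquinoline alkaloids such as morphine, noscapine and sanguinarine, whose biosynthetic enzymes are tied to the phloem and to the latex-bearing laticifers that run beside it in both organs. None of the unigene IDs was found in the RefSeq gene table for the species (0 matched), and the study's functional annotation of the unigenes was not used here, so the unigenes are not given gene names and the tissue labels could not be checked against marker genes of root or leaf. The differences are therefore described by their number, size, direction and expression level, and 4 unigenes are given by ID.

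The samples were of similar breadth. In root 46019, 46119 and 46019 unigenes were above 0.1 RPKM in replicates 1, 2 and 3, and in leaf 45866, 45735 and 46603. Unigenes above 100 RPKM numbered 1290, 1377 and 1441 in the root replicates and 1591 to 1597 in the leaf replicates, with no overlap. Unigenes above 1000 RPKM held 24.9% ± 4.80 of the summed RPKM in root and 34.6% ± 1.52 in leaf (SD, n = 3 samples each, exact permutation test, two-sided, p = 0.1, 0.15 after Benjamini-Hochberg adjustment over 12 measures of the samples). With 3 samples against 3, no exact test can give a p-value under 0.1. Much of the gap lay in PB.225.272, and without this unigene, left out after its values were seen, the shares were 23.8% ± 4.13 in root and 28.7% ± 1.91 in leaf, and the samples overlapped (19.3% to 27.4% in root, 26.6% to 30.4% in leaf). The number of reads behind each value is unknown, since the values hold no counts. The clean bases per sample that the study tabulates overlapped between root and leaf and were highest in root replicate 3. RNA integrity as tabulated by the study was lower in every leaf sample than in every root sample, so tissue and RNA integrity cannot be told apart.

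Root replicate 3 stood apart from the other root samples. Tests covered the 48433 unigenes (78.3% of all) that exceeded 0.1 RPKM in 3 or more of the 6 samples. Of these, 15.8% and 16.3% differed at least 2-fold between root replicate 3 and the other root replicates, against 8.95% between root replicates 1 and 2. This fold change, like all those that follow unless stated, is on the log2(RPKM + 1) scale, which understates the change of unigenes near or under 1 RPKM. Any pair of leaf replicates differed at least 2-fold in 3.13% to 4.31% of the unigenes. The 9 pairs of 1 root and 1 leaf sample differed in 26.5% to 31.3%, above all pairs within a tissue. For differences of at least 8-fold the counts were 2172 to 2712 unigenes in the root and leaf pairs, 368 to 827 in the root pairs and 30 to 144 in the leaf pairs. The difference between the organs was thus larger than the replicate error in every pair, and that error was itself larger in root.

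**Figure D1:**
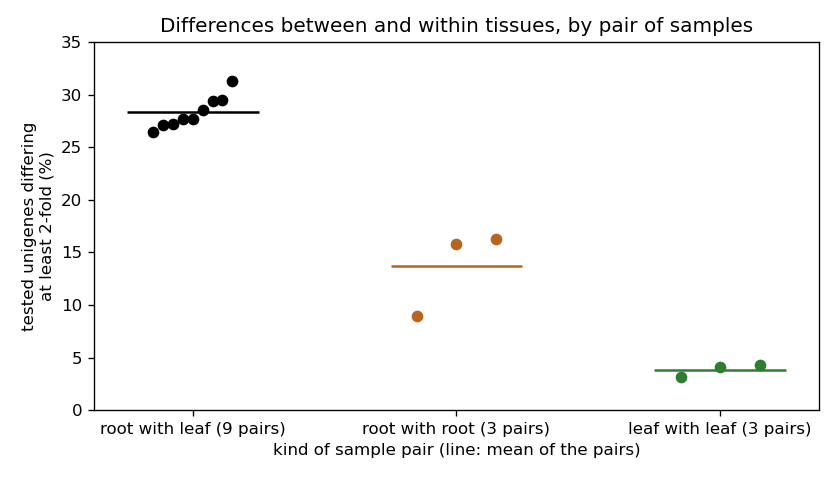
Share of the 48433 tested unigenes (percent) that differed at least 2-fold on RPKM + 1, for each pair of samples, grouped as root with leaf, root with root and leaf with leaf; each point is a pair and each line the mean of its pairs. The root and leaf pairs lie between 26.5% and 31.3%, above the root pairs (8.95% to 16.3%) and the leaf pairs (3.13% to 4.31%).

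Between root and leaf 9427 unigenes differed (19.5% of those tested), 4831 higher in root (9.97%) and 4596 lower in root (9.49%). These unigenes, referred to as calls, had a fold change of 2 or more and a limma p-value under 0.05 after Benjamini-Hochberg adjustment over all 48433 unigenes. The numbers in the 2 directions were close, yet the sizes were not. The median fold change was 2.88 for the unigenes higher in root (log2 1.53, quartiles 1.21 and 2.16) and 4.43 for those lower in root (log2 -2.15, quartiles -3.28 and -1.48). RNA of a whole organ does not tell fewer cells of a type from less RNA per cell. RPKM is relative to the reads mapped in a sample and is not an amount per cell.

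The balance of directions moved with the scaling and with the samples used. After scaling each sample by its median ratio to the others, there were 3149 calls higher in root and 5612 lower, 35.9% higher against 51.2% without this scaling. The scaling lowered the median log2 fold change over all tested unigenes to 0.02, against 0.19 before it, so the unscaled differences include a shift toward root. The shift was uneven, with medians of 0.19 to 0.29 in the pairs of root replicates 1 and 2 with leaf samples and of 0.02 to 0.11 in those of root replicate 3. Without root replicate 3 there were 6658 calls higher in root and 4822 lower, 58.0% higher. Leaving out any other sample put the majority on the other side, from 43.29% higher without leaf replicate 2 (3236 higher, 4239 lower) to 48.55% without root replicate 2.

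The 3 root samples lay above the 3 leaf samples in 14330 of the tested unigenes (29.6%) and below them in 8590 (17.7%). Among the called unigenes, root and leaf samples did not overlap in 4827 of the 4831 higher in root and in all 4596 lower in root. A stricter reading asks for a fold change of 2 or more in each of the 9 pairs of a root and a leaf sample. It was met by 2168 of the unigenes higher in root (44.9%) and by 3283 of those lower in root (71.4%). A further 1948 unigenes had a fold change of at least 2 but were not called, 1429 higher in root and 519 lower, and in 991 of them the root and leaf samples overlapped.

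The larger the difference, the more often it was lower in root. Of the calls between 2-fold and 4-fold, 3406 were higher in root and 2059 lower, so 62.3% were higher. This lead depended on the scaling and the test, since after median ratio scaling calls of this size split into 2070 higher in root and 2679 lower, and into 106 and 223 with the fold limit inside the test. Between 4-fold and 8-fold the numbers were 856 and 1168, or 42.3% higher. Calls of at least 8-fold numbered 569 higher in root and 1369 lower, those of at least 32-fold 126 and 365, and those of at least 64-fold 57 and 167. At the 8-fold limit these were 11.8% of all calls higher in root and 29.8% of all calls lower in root.

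At 8-fold and more, calls lower in root outnumbered calls higher in root under all 18 alternatives that were run. After median ratio scaling there were 459 higher and 1598 lower. Without root replicate 3 there were 706 and 1408. When the 2-fold limit was part of the test itself (limma's treat), 3549 calls were made, 1068 of them higher in root and 2481 lower.

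**Figure D2:**
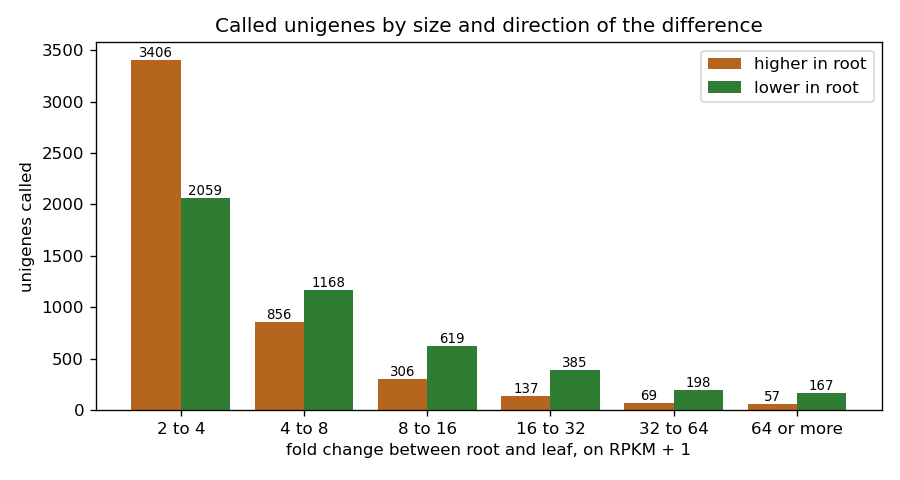
Number of called unigenes by size of the fold change between root and leaf (on RPKM + 1), with bars for those higher in root and those lower in root. Without scaling, higher in root leads only in the bin from 2 to 4 (3406 against 2059), and from 4-fold upward each bin holds more unigenes lower in root.

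Differences were called more often among abundant unigenes. Of the unigenes with a mean of up to 1 RPKM over the 6 samples, 3.22% of 14497 were called. The share was 17.2% of 13661 between 1 and 3.8 RPKM (an edge of the study's own bins, rounded here), 27.4% of 11675 between that edge and 15 RPKM, and 37.6% of 7037 between 15 and 100 RPKM. It reached 47.5% of 1462 between 100 and 1000 RPKM and 71.3% of 101 above 1000 RPKM. Level and difference are not independent here, since a high value in 1 organ alone also raises the mean over the 6 samples. The lowest share was set in part by the added 1 RPKM, since with 0.1 RPKM added in its place 17.8% of the unigenes up to 1 RPKM were called. Above 100 RPKM, where this choice matters little, the share was 49.0% with 1 RPKM added and 49.4% with 0.1 RPKM.

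Direction also changed with the level. Between 3.8 and 15 RPKM, 1823 calls were higher in root and 1376 lower (57.0% higher), but after median ratio scaling 1157 and 1721, with quantile normalization 1410 and 1555, without leaf replicate 2 1191 and 1216, and with the fold limit inside the test 397 and 752. Between 15 and 100 RPKM the order was turned, with 1216 higher and 1429 lower. Above 1000 RPKM, root exceeded leaf in 20 calls among 101 tested unigenes and was lower in 52, and the median log2 fold change of all 101 was -2.43. The size of the differences grew with the level in both directions but more in the falls. The median log2 fold change of calls higher in root was 1.42 between 1 and 3.8 RPKM and 1.84 between 100 and 1000 RPKM, while that of calls lower in root was -1.70 and -4.09 in the same bins. On this scale a unigene of low mean cannot show a large fold change, and all but 5 of the calls of at least 8-fold had a mean above 3.8 RPKM.

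**Figure D3:**
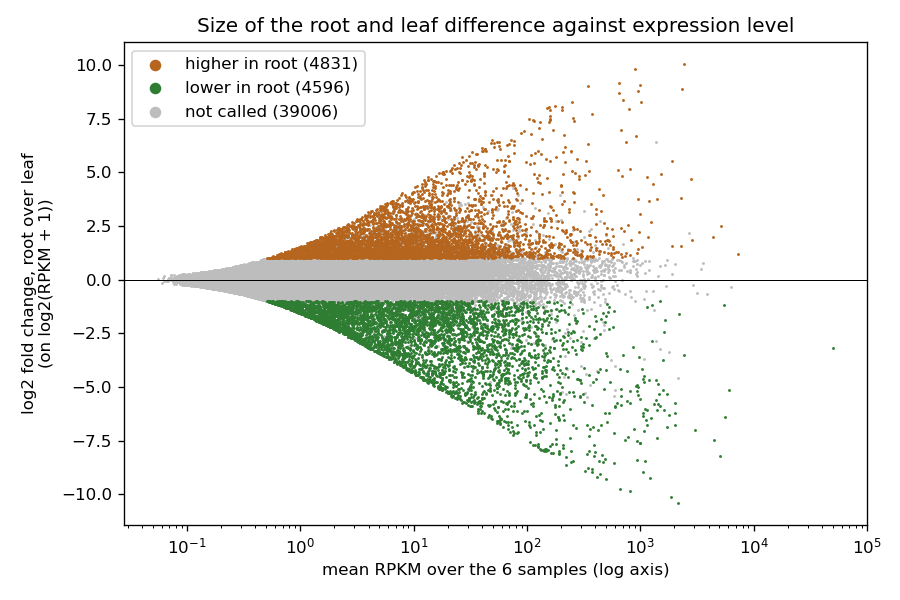
Log2 fold change of root over leaf (vertical axis, on log2(RPKM + 1)) against the mean RPKM over the 6 samples (horizontal log axis) for the 48433 tested unigenes, coloured by call. The cloud widens with the level, the 4596 calls lower in root (median -2.15) lie further from 0 than the 4831 higher in root (median 1.53), and unigenes of low mean cannot lie far from 0 because of the added 1 RPKM.

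**Figure D4:**
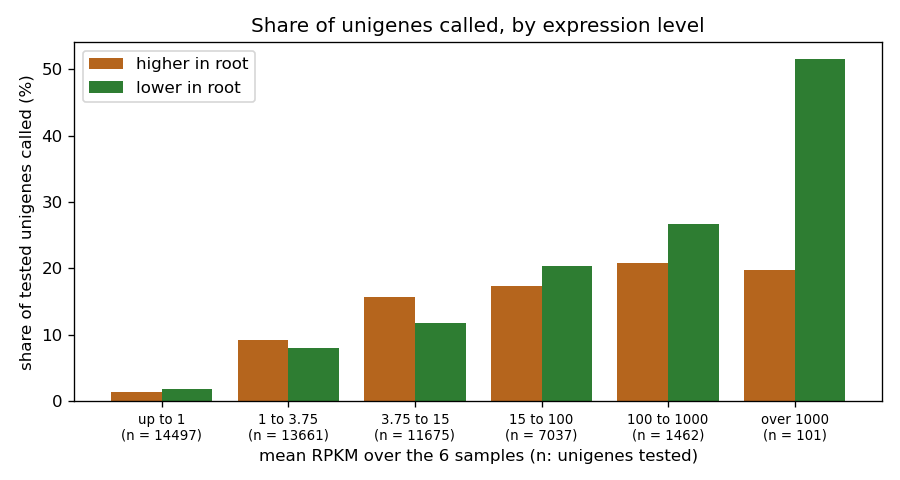
Share of tested unigenes called (percent) in bins of the mean RPKM over the 6 samples, with bars for those higher in root and those lower in root. Up to 1 RPKM 1.42% were higher in root and 1.80% lower, while above 1000 RPKM 19.8% were higher in root and 51.5% lower.

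The unigenes with the largest fold changes were abundant in one organ and mostly low in the other. The abundance follows from the scale, since with 1 RPKM added a fold change of this size needs a high level in one organ. The 100 largest among the calls higher in root had fold changes from 40.3 to 1040, with a mean root level between 49.96 and 4853 RPKM (median 222.0). Their mean leaf level had a median of 0.65 RPKM and was at or under 1 RPKM in 61 of them, the highest being 76.7 RPKM. The 100 largest among the calls lower in root had fold changes from 104 to 1336. Their mean root level had a median of 0.855 RPKM and was at or under 1 RPKM in 54 of them, the highest being 54.2 RPKM, and their mean leaf level lay between 108 and 10069 RPKM (median 486). Values near 0 throughout the other organ were rare, since 8 of the first 100 and 4 of the second were at or under 0.1 RPKM in all 3 of its samples. Most unigenes detected in 1 organ alone were too low there to enter these lists, so this rarity is no separate result.

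The largest rises were uneven among the root samples, while the largest falls were more even among the leaf samples. Of the 100 largest rises in root, 72 differed more than 2-fold in RPKM between the highest and the lowest root sample and 35 more than 4-fold, with a median ratio of 2.49. Of the 100 largest falls, 12 differed more than 2-fold between the leaf samples and 1 more than 4-fold, with a median ratio of 1.34. Root replicate 3 was the lowest of the root samples in 49 of the rises, replicate 2 in 29 and replicate 1 in 22. All 200 of these unigenes, which were picked by their fold change among the calls, had no overlap between root and leaf samples.

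On the linear RPKM scale the differences were concentrated in few unigenes, more so for those lower in root. The differences between tissue means summed to 427175 RPKM over the unigenes higher in root and to 563676 RPKM over those lower. All unigenes together held 933678 RPKM on average in a root sample and 1070180 RPKM in a leaf sample. The sum over unigenes lower in root is larger by this gap in totals, so its excess is no separate result. Of the 427175 RPKM, 50% was held by 294 unigenes and 90% by 5477. Of the 563676 RPKM, 50% was held by 79 unigenes and 90% by 1689, and PB.225.272, described further on, held 13.1%. The RPKM of the samples was itself concentrated, and more so in leaf. The 100 most abundant unigenes of a sample held on average 25.9% of its summed RPKM in root and 33.3% in leaf. Among the 100 largest differences in RPKM in each direction, 73 of those higher in root and 98 of those lower passed the call. The share called was 19.5% of all tested unigenes, 47.5% of those between 100 and 1000 RPKM and 71.3% of those above 1000 RPKM. These lists were picked by the size of the difference itself.

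The most abundant transcripts were largely different in the 2 organs. Of the 100 unigenes with the highest mean in root, 25 were also among the 100 highest in leaf. In the root list, which ran from 904 to 13724 RPKM, 50 were called higher in root, 4 lower and 46 not called. In the leaf list, which ran from 1188 to 87648 RPKM, 78 were called lower in root, 4 higher and 18 not called. Of all tested unigenes 9.97% were called higher and 9.49% lower, and of the 101 with a mean above 1000 RPKM 71.3% were called in either direction. Ranking by the mean of one organ itself favours unigenes that are higher there. The set of all calls lower in root held 5.45% to 7.03% of the summed RPKM of the root samples and 51.7% to 54.1% of that of the leaf samples. The set of all calls higher in root held 37.6%, 35.03% and 30.4% of the summed RPKM of root replicates 1, 2 and 3, and 5.98% to 6.25% of that of the leaf samples. These shares describe sets chosen by the same values.

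The replicate spread followed the same division. Over all tested unigenes the median SD of log2(RPKM + 1) was 0.31 among the root samples and 0.19 among the leaf samples. Among the calls higher in root the medians were 0.41 in root and 0.20 in leaf, and among the calls lower in root 0.28 and 0.22. The SD was larger in root in 64.02% of the unigenes up to 1 RPKM and in 81.2% of those above 1000 RPKM. Root replicate 3 was the lowest root sample in 55.7% of the calls higher in root, with a median of 0.31 (log2) under the mean of the other root replicates. Measured against the leaf mean, 74.0% of the calls higher in root were at least 2-fold higher in root replicate 3, against 91.5% in root replicate 1 and 89.8% in root replicate 2. Among the calls lower in root, replicate 3 was not nearer to leaf, with 96.7% at least 2-fold lower, against 92.6% in each of the other root replicates. Over all tested unigenes, replicate 3 lay under each of the other root replicates by a median of 0.18 (log2). Such an offset places a sample nearer to leaf among the rises and farther from leaf among the falls. Its part in these figures was not tested. What sets this sample apart was not tested.

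Few unigenes were detected in 1 organ alone. Of the 61856 unigenes, 37082 were above 0.1 RPKM in all 6 samples (59.9%) and 8097 were at or under it in all 6 (13.1%). Above 0.1 RPKM in all 3 root samples and at or under it in all 3 leaf samples were 929 unigenes (1.502%), and 1150 showed the opposite pattern (1.86%). Most of them were low. The 929 had a median level of 0.773 RPKM in root, 42 were above 15 RPKM and 3 above 100 RPKM, with a highest mean of 408 RPKM. The 1150 had a median level of 1.08 RPKM in leaf, 93 were above 15 RPKM and 4 above 100 RPKM, with a highest mean of 152 RPKM. An RPKM of exactly 0 in all 3 samples of the other organ was listed for 315 of the 929 and 586 of the 1150. These counts depend on the limit, and without read numbers a value of 0.1 RPKM or less does not show absence. At a limit of 3.8 RPKM on both sides the counts were 1658 for root and 1707 for leaf.

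Of the called unigenes, the 4 given by ID had the widest gap in RPKM between the lowest sample of one organ and the highest of the other, 2 in each direction. Their function is not known here. PB.26859.37 had 6982, 4012 and 5275 RPKM in root replicates 1, 2 and 3, against 167, 159 and 315 RPKM in leaf replicates 1, 2 and 3. The lowest root sample was 3696 RPKM above the highest leaf sample, and the unigene ranked 7 in root and 732 in leaf by mean level. Its log2 fold change was 4.69 (standard error 0.34, adjusted p = 0.000125 from limma). PB.52.498 had 11519, 10512 and 8520 RPKM in the root samples, against 3809, 4954 and 4382 RPKM in the leaf samples. It was abundant in both organs, ranking 2 in root and 11 in leaf. Its log2 fold change was 1.21 (standard error 0.23, adjusted p = 0.00931 from limma), but after median ratio scaling it was 0.88 with an adjusted p of 0.0994 and was no longer called. It was also not called with quantile normalization (log2 fold change 1.79, adjusted p = 0.0673 from limma) or with no filter on low values (1.21, adjusted p = 0.506).

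PB.225.272 was the most abundant unigene of both organs by mean level, though not in every root sample. It had 18130, 2518 and 20522 RPKM in root replicates 1, 2 and 3, against 89803, 87017 and 86123 RPKM in leaf replicates 1, 2 and 3. Root replicate 2 lay far under the other root samples, the leaf samples differed little, and the tissues did not overlap. It took 1.89%, 0.280% and 2.18% of the summed RPKM of the root samples and 7.90% to 8.62% of that of the leaf samples. The most abundant unigene of each root sample took 2.42%, 1.17% and 2.18%, so among the root samples PB.225.272 led only in replicate 3. The log2 fold change was -3.16 (standard error 0.79, adjusted p = 0.0251 from limma). Without root replicate 2 it was -2.18 (adjusted p = 0.00571 from limma), and without any one of the leaf samples the log2 fold change stayed between -3.18 and -3.14 while the adjusted p was 0.0771 to 0.0823, so that it was no longer called. It was also not called with quantile normalization (log2 fold change -1.78, adjusted p = 0.179 from limma) or with no filter on low values (-3.16, adjusted p = 0.708).

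PB.974.98 had 488, 343 and 227 RPKM in the root samples, against 10930, 11445 and 13178 RPKM in the leaf samples. It ranked 386 in root and 2 in leaf. Its log2 fold change was -5.13 (standard error 0.30, adjusted p = 5.23e-05 from limma), and it was called under all 16 alternatives in which it was recomputed.

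**Figure D5:**
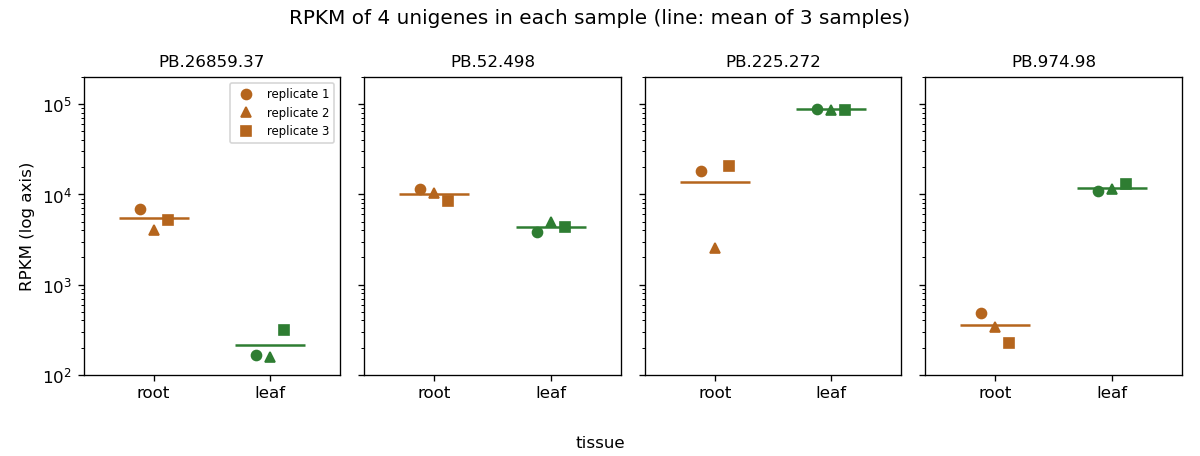
RPKM (log axis) of 4 unigenes in the 3 root and 3 leaf samples, with a marker shape for each replicate number and a line at the mean of each tissue. PB.26859.37 and PB.52.498 are higher in all root samples, PB.225.272 and PB.974.98 are lower in all root samples, and root replicate 2 of PB.225.272 (2518 RPKM) lies far under the other root samples.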

How the data were processed

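The authors removed low-quality paired-end reads, aligned the rest with HISAT2 2.05 against the unigenes from their PacBio sequencing and quantified them with RSEM; the deposited values are RPKM (called FPKM in the methods), rounded to 2 decimals, with no further normalization between samples stated. RSEM divides reads between similar unigenes, so near-identical copies are uncertain. No genome build is involved, and unigene lengths and sequences were not used here. The members and settings were chosen with earlier results of these data known.

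Unigenes that exceeded 0.1 RPKM in 3 or more of the 6 samples were tested with limma 3.58.1 (R 4.3.3) on log2(RPKM + 1), with an intensity trend and without stem samples. Calls needed a Benjamini-Hochberg adjusted p-value under 0.05 and a fold change of at least 2, the thresholds of the study. The study's own test models counts, which were not used here. In simulated data with 200 raised unigenes among 48433, 50 of 100 changed 4-fold and 82 of 100 changed 16-fold were called, along with 7 unchanged ones. The simulation changed far fewer unigenes than were called here, raised none of low mean and gave both tissues the same spread. Its rates therefore do not describe the root and leaf comparison itself. The named unigenes follow a rule, the 2 widest gaps in RPKM between the samples of both organs in each direction among the calls. Other steps used Python 3.11.15, numpy 2.4.6, pandas 2.3.3 and scipy 1.17.1. The alternatives were other pseudocounts, filters, scalings, variance models and fold limits, the replicate block, and leaving out each sample.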

Additional observations from a re-analysis of the deposited data

How the results depend on the processing

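The number of unigenes called stayed within 1.5 times 9427 under 17 of 18 alternatives, the fewest (7082) at a filter of 3.8 RPKM and the most (14127) without a fold limit. Testing against the 2-fold limit gave 3549, with 1068 higher in root and 2481 lower. The count higher in root was also 3149 with median ratio scaling and 7954 without a fold limit. Leaving out 1 sample gave 7475 to 11480 calls, 3236 to 6658 higher in root and 4034 to 4822 lower. Of the 11480 calls without root replicate 3, 8857 were among the 9427. Calls of at least 8-fold were 1530 higher and 2590 lower in root with a pseudocount of 0.1 RPKM, and 2109 and 3146 with 0.01 RPKM, which by construction enlarges the change of low unigenes. Leaving out 1 sample gave 517 to 706 higher and 1325 to 1408 lower. The share of calls higher in root was 56.3% with sample weights, which ran from 0.289 for root replicate 3 to 1.80 for leaf replicate 3, and 58.0% without root replicate 3.

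Unigenes detected in root and not in leaf numbered 1745 at a limit of 1 RPKM, 1658 at 3.8 RPKM and 315 where the leaf had to be at exactly 0. Those detected in leaf and not in root numbered 1740 at 1 RPKM and 586 where the root had to be at exactly 0. Leaving out 1 sample gave 1156 to 1333 and 1278 to 1619.

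Replicate numbers 1 to 3 occur in both tissues. Same-numbered samples shared deviations weakly (correlations 0.34, 0.18 and 0.02), under the limit of 0.1 for number 3. Correlations of differently numbered samples ran from -0.27 to 0.11. The numbers were not taken to pair the samples, and a shared origin of same-numbered samples was not tested. The replicate block gave 9354 calls, with 4776 higher in root and 4578 lower. The calls that PB.225.272 and PB.52.498 lost are given with their values beside these unigenes, and the cause was not tested. Without read counts, no counting error or detection floor can be given.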
